A study of Mus musculus with 10 samples.

Results

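The 4 Ink4 genes Cdkn2a, Cdkn2b, Cdkn2c and Cdkn2d and the Cip/Kip gene Cdkn1b were followed through 5 cultures of mouse embryonic stem cells. The members were taken by gene symbol, and all 5 were found among the 24015 gene rows of each of the 10 count tables. The cells came from the inner cell mass of the blastocyst and contain a Wnt/β-catenin reporter, and every culture held leukaemia inhibitory factor (LIF) on gelatin. The groups of 2 libraries each are the original culture in serum (called serum), 5 to 6 passages in 2i (first 2i), more than 13 passages in 2i (long 2i), more than 13 passages in 2i followed by 6 in serum (serum return), and 13 passages in 2i, 6 in serum and 4 to 5 again in 2i (second 2i). 2i stands for a GSK3 inhibitor at 3 µM used together with an inhibitor of the ERK pathway at 1 µM. The cells were usually passaged every 48 h. The labels do not say whether the groups are successive samples of 1 culture or whether replicates were separate cultures, so p-values measure the spread between these libraries only.

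Ink4 proteins bind the kinases Cdk4 and Cdk6 and keep D-type cyclins from activating them, which leaves the retinoblastoma protein unphosphorylated and holds cells before S phase. Cdkn2a makes 2 unrelated proteins from separate first exons: p16, the Ink4 inhibitor, and p19Arf, which binds Mdm2 and thereby stabilises p53. Cdkn2b encodes p15, known as a target of TGF-β signalling in epithelial cells, Cdkn2c encodes p18 and Cdkn2d encodes the Ink4 protein p19. Cdkn1b encodes p27, which inhibits cyclin E with Cdk2 and is controlled largely by its degradation, so that its mRNA does not measure the protein. Embryonic stem cells have a short G1 phase and are known for low Ink4 levels.

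Gene counts ran between 16809070 and 27766338 in a library. Levels are CPM, counts scaled to a common library size over the 14220 genes that passed a filter on low counts, with TMM factors, and are given as mean ± SD with n = 2 libraries; all 5 members passed that filter. The 8 stem cell markers summed to 4550 to 7030 CPM in every library and none was at 0. Their sum was lowest in long 2i, at 4550 to 4600 CPM. There 6 of the 8 were called lower and 1 higher than in serum by edgeR at an adjusted p under 0.05. Their median log2 fold change was -0.67, and of all genes 33.9% were called lower and 35.1% higher. Among the markers of other cells, Twist2 was at 0 in every group, Col1a1 averaged at most 2.43 CPM in a group, and the fibroblast list's sum was almost all Fn1 (group means of 1180 to 2470 CPM), which stem cells also express. Other markers were present, such as Pdgfrb at 5.03 to 14.1 CPM over the groups, and several moved with the medium. Thy1 of the fibroblast list averaged 13.7 CPM in serum, 0.452 in first 2i, 0.191 in long 2i, 22.3 in serum return and 0.673 in second 2i. Sox7 of the primitive endoderm list averaged 35.3, 1.26, 2.81, 36.5 and 0.485 CPM in the same order, Tubb3 of the neural list 47.3, 6.46, 33.7, 45.4 and 10.5 CPM, and the endothelial Cdh5 6.03, 0.117, 0.112, 4.27 and 0.109 CPM. These 4 were lower in each 2i group than in both serum media, opposite to Cdkn2a, Cdkn2b and Cdkn2c. Other members of these lists were highest in long 2i, as Cdkn2a and Cdkn2b were. Among them were Kdr (5.05 CPM in long 2i against 0.398 in serum) and Tek (6.57 against 2.31). Gata4 (4.67 against 1.28), Dab2 (8.52 against 1.47) and Pax6 (2.55 against 0.621) were others. The part of all these markers in the results was not tested. Ptprc had at most 1 count in any library, and Hba-a1 had none. Replicates were further apart than counting noise in each group (chi-square per degree of freedom 2.9 to 4.07 without the 50 most different genes) and each was counted as a sample, although such a spread can also arise in library preparation. The ribosomal RNA precursor Rn45s stood at 15476 CPM in replicate 2 of serum return, against 2496 to 5445 CPM in the other libraries.

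Since Cdkn2a and Cdkn2b lie next to each other on chromosome 4 and moved together between media, their promoters are shown. Those of Cdkn2c, which also moved, and Cdkn2d, which passed no test in the main fit, are shown too. RefSeq lists 7 start sites for the 5 genes. Each window holds 250 bases before and 50 after a start site, 5′ to 3′ on the gene's strand, with build GRCm38.p6, which is not the mm9 build of the counts. Cdkn2a has 2 windows, the upstream one for the Arf first exon at chr4:89294570-89294869 and the downstream one for the Ink4a first exon at chr4:89282143-89282442. Those of Cdkn2b (chr4:89310983-89311282), Cdkn2c (upstream start, chr4:109666707-109667006) and Cdkn2d (chr9:21291160-21291459) follow, and all windows shown are on the minus strand. Capitals mark matches, on either strand, to the letters GGGCGG of a GC box, to the 5 letters that give the CCAAT box its name, or to an E2F site (TTTCGCGC, TTTGGCGC, TTTCCCGC or TTTGCCGC), and the capitals ATTGGGCGG in the Ink4a window join a CCAAT box on the other strand with a GC box.
Cdkn2a, Arf start: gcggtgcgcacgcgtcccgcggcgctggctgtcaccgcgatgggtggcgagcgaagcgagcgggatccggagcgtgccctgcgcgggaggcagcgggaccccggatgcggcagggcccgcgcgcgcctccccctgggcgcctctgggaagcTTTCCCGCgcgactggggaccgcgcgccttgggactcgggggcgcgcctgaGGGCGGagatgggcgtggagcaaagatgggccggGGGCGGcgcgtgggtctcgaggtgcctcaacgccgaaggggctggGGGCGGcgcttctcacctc
Cdkn2a, Ink4a start: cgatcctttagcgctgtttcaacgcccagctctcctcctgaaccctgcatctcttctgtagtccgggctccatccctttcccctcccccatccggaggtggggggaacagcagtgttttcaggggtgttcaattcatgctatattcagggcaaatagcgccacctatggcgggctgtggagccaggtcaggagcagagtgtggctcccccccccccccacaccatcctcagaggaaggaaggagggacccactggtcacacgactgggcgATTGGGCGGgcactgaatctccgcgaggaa
Cdkn2b: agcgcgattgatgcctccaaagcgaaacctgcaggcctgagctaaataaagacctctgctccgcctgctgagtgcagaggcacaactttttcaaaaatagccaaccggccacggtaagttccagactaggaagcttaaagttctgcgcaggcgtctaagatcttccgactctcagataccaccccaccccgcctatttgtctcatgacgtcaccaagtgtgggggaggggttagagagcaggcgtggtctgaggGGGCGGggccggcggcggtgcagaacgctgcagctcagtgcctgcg
Cdkn2c, upstream start: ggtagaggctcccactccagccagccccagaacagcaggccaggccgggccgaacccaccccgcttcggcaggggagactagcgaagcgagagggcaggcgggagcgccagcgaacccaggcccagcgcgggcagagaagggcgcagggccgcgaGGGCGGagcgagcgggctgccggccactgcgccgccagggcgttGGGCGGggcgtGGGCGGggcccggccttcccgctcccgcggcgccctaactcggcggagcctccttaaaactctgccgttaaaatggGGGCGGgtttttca
Cdkn2d: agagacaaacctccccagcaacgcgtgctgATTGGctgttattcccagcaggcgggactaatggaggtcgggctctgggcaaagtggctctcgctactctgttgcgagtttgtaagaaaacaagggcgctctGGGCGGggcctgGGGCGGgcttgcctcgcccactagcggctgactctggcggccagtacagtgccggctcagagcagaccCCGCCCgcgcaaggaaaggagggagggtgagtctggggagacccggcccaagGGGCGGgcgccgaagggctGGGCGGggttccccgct

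The Arf window was the richest of these in CpG, with 45 CpG dinucleotides and 77% G and C, and 98% of the 32544 distinct RefSeq mouse windows of the same length held fewer. The Ink4a window of the same gene held 12, Cdkn2b 18, Cdkn2c 33 and Cdkn2d 22, against a median of 7 over all windows. GC boxes numbered 3 at the Arf start, 1 at the Ink4a start, 1 at Cdkn2b, 4 at Cdkn2c and 5 at Cdkn2d, and 35.9% of all windows held at least 1. A CCAAT box was found once at the Ink4a start, once at the downstream Cdkn2c start, once at Cdkn2d and 3 times at Cdkn1b, and in 37.4% of all windows. The single E2F match was at the Arf start, and 2.28% of all windows held one. No window of the 5 genes held the letters searched for TCF/LEF (CTTTGA), FoxO (TTGTTTAC) or ETS (CCGGAAGT), which 16%, 1.23% and 3.92% of all windows held. Among the windows shown, GC boxes were most at Cdkn2d, which passed no test in the main fit. The part of these sites in the results was not tested. Counts are per gene, so the Arf and Ink4a transcripts of Cdkn2a, which share their later exons, cannot be told apart in any value that follows.

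Cdkn2a was read at few counts in serum and at many more in 2i. Its counts were 11 and 12 in serum, 590 and 658 in first 2i, 602 and 711 in long 2i, 46 and 32 in serum return, with 273 and 315 for second 2i. As CPM these were 0.526 and 0.625, then 27.6 and 32.0, then 35.6 and 37.5, then 1.65 and 1.49, and 14.9 and 16.6 in the last group. All 6 libraries from 2i lay above all 4 from serum media, no group overlapped another, and Cdkn2a passed the test in 10 of the 10 pairs of groups. Calls between media were common, with 38.4% of all genes higher and 38.3% lower over all 2i against all serum cultures. Among the 10 pairs, genes called in either direction ran from 4407 (serum return against serum) to 10153 (serum return against long 2i) of 14220. The share of all genes without overlap, or passing in as many pairs, was not counted, for this member or those below.

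Cdkn2b, its neighbour, took the same order of groups at lower counts. It had 4 and 3 counts in serum, 67 and 66 in first 2i, 91 and 117 in long 2i, 9 and 10 in serum return, with 38 and 45 for second 2i. These are 0.191 and 0.156 CPM in serum, 3.13 and 3.21 in first 2i, 5.38 and 6.18 in long 2i, 0.323 and 0.465 in serum return, with 2.07 and 2.37 CPM for second 2i. No groups overlapped, but the 4 counts of serum replicate 1 alone have an exact Poisson 95% interval of 1.09 to 10.2 counts, and 8 of 10 pairs of groups passed. The pairs that did not pass were serum return against serum and second 2i against first 2i.

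Cdkn2c had 6 and 4 counts in serum, 50 and 40 in first 2i, 50 and 52 in long 2i, 11 and 7 in serum return, with 66 and 65 for second 2i. Its levels were 0.287 and 0.208 CPM in serum, 2.34 and 1.95 in first 2i, 2.96 and 2.74 in long 2i, 0.395 and 0.326 in serum return, with 3.60 and 3.43 CPM for second 2i. Libraries from 2i and from serum media did not overlap, and here second 2i, not long 2i, was the highest group. Of 10 pairs 7 passed, and neighbours in the order that did not pass were serum return and serum, long 2i and first 2i, and second 2i and long 2i.

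Cdkn2d had 15 and 36 counts in serum, 38 and 34 in first 2i, 47 and 34 in long 2i, 50 and 29 in serum return, with 25 and 40 for second 2i. As CPM, serum spanned 0.717 in replicate 1 and 1.88 in replicate 2, and the other 8 libraries lay at 1.35 to 2.78 CPM. Media overlapped, the replicates of serum were further apart than any pair of group means, and none of the 10 pairs passed. At an unadjusted threshold of 0.05 in edgeR, 1 of them would have passed, long 2i against serum (edgeR adjusted p = 0.0526), and without the filter on low counts it did pass (edgeR adjusted p = 0.0115). Without serum replicate 2, the higher of the pair, Cdkn2d was called higher against serum in long 2i (log2 fold change 1.65, edgeR adjusted p = 0.00274) and in second 2i (1.27, edgeR adjusted p = 0.0211). Without serum replicate 1 its log2 fold change against serum was -0.11 in second 2i and -0.24 in serum return, so that 1 library decides its direction there. In long 2i against serum its direction held whichever library was left out (0.27 to 1.65).

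Cdkn1b was read at high counts in every culture, 1612 and 1469 in serum, 2418 and 2180 in first 2i, 1448 and 1698 in long 2i, 2784 and 2330 in serum return, with 1766 and 1903 for second 2i. Its levels were 77.1 and 76.5 CPM in serum, 113 and 106 in first 2i, 85.6 and 89.6 in long 2i, 99.9 and 108 in serum return, with 96.2 and 100.3 CPM for second 2i. Serum had the lowest mean and first 2i the highest, but the order did not follow the medium. Serum return lay above long 2i, and its libraries overlapped with those of first 2i and those of second 2i. Of 10 pairs 8 passed, and serum return did not differ beyond the spread from first 2i (log2 fold change -0.08, 95% interval -0.20 to 0.05) or from second 2i.

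**Figure D1:**
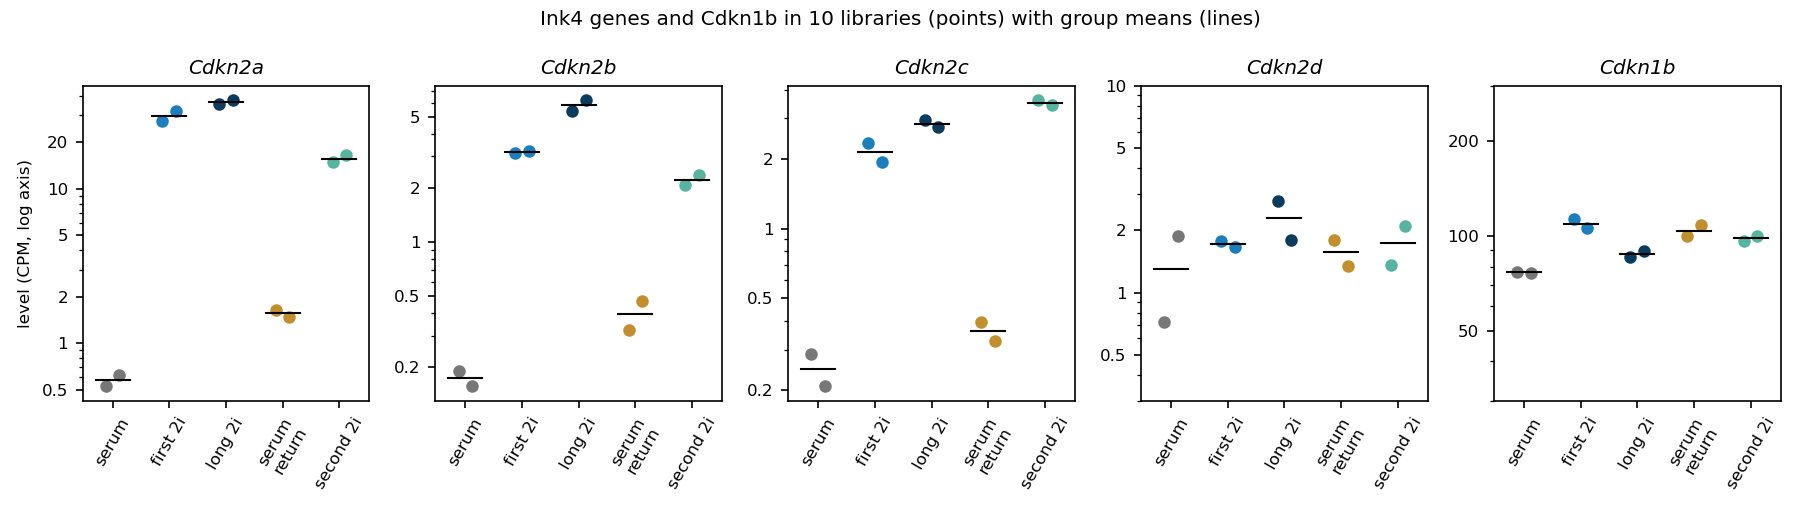
Level of each gene in CPM on a log axis, 1 panel per gene with its own scale, for 5 culture groups in the order of the culture history; points are the 2 libraries of a group and lines their mean. Cdkn2a, Cdkn2b and Cdkn2c are high in the 3 groups in 2i and low in both serum groups, Cdkn2d overlaps between media, and Cdkn1b stays between 76.5 and 113 CPM.

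The first exposure to 2i was set against the original serum culture to see how the inhibitors respond to the change of medium. Cdkn2a averaged 29.8 ± 3.1 CPM in first 2i and 0.576 ± 0.070 CPM in serum, 51.4-fold higher. Cdkn2b was 17.6-fold higher (3.17 ± 0.06 against 0.174 ± 0.025 CPM) and Cdkn2c 8.43-fold higher (2.14 ± 0.28 against 0.248 ± 0.056 CPM). Cdkn1b rose 1.43-fold, to 110 ± 4.9 CPM in first 2i against 76.8 ± 0.4 CPM in serum. Cdkn2d averaged 1.72 ± 0.09 CPM in first 2i and 1.30 ± 0.82 CPM in serum, which did not pass.

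In edgeR's quasi-likelihood test, fitted to all 10 libraries and adjusted by Benjamini-Hochberg over 14220 genes, the log2 fold changes were 5.68 (SE 0.17, adjusted p = 7.9e-17) for Cdkn2a, 4.14 (SE 0.37, adjusted p = 3.18e-09) for Cdkn2b and 3.08 (SE 0.37, adjusted p = 3.16e-07) for Cdkn2c. That of Cdkn1b was 0.51 (SE 0.06, adjusted p = 2.02e-07), and that of Cdkn2d was 0.43 with a 95% interval of -0.36 to 1.21 (adjusted p = 0.319). Thus 4 of 5 members were called higher, where 35.1% of all genes tested were called higher and 34.9% lower, and their median log2 fold change was 3.08 against 0.01 over all genes. The contrasts share libraries with each other, so their values are not independent. Cdkn2b and Cdkn2c passed the filter on low counts only through the 2i groups, so that a difference of theirs between media was built into their being tested. Without serum replicate 2, Cdkn2d was called too (log2 fold change 1.25, adjusted p = 0.0203), and without serum replicate 1 its log2 fold change was -0.13. Fn1, the leading gene of the fibroblast list, averaged 2250 CPM in first 2i and 1570 CPM in serum, but 1180 CPM in long 2i, where Cdkn2a was highest, and its part in the result was not tested. Since these are bulk RNA samples, more expressing cells and more RNA per cell cannot be told apart.

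Long 2i against first 2i asks whether the inhibitors kept their level with more passages in the same medium. Cdkn2b went on rising, 1.82-fold, to 5.78 ± 0.56 CPM in long 2i against 3.17 ± 0.06 CPM in first 2i (log2 fold change 0.87, SE 0.19, edgeR adjusted p = 0.000651). Cdkn2a was 1.23-fold higher, at 36.6 ± 1.4 CPM in long 2i and 29.8 ± 3.1 CPM in first 2i (log2 fold change 0.29 with SE 0.09, edgeR adjusted p = 0.0094). This call was lost with DESeq2 (adjusted p = 0.0553), without first 2i replicate 1 (adjusted p = 0.171) and without long 2i replicate 2 (adjusted p = 0.0722). Cdkn1b moved the other way, 1.25-fold lower, with 87.6 ± 2.9 CPM in long 2i and 110 ± 4.9 CPM in first 2i (log2 fold change -0.32, SE 0.06, edgeR adjusted p = 9.92e-05). Cdkn2c (2.85 ± 0.15 against 2.14 ± 0.28 CPM) and Cdkn2d (2.29 ± 0.70 against 1.72 ± 0.09 CPM) did not pass, with 95% intervals of the log2 fold change of -0.09 to 0.90 and -0.32 to 1.12. So 2 members were called higher and 1 lower, where 30.4% of all genes were called higher and 30.8% lower.

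Against the original serum culture, long 2i had 63.1-fold more Cdkn2a, 32.1-fold more Cdkn2b and 11.2-fold more Cdkn2c, while Cdkn1b was 1.14-fold higher (edgeR adjusted p = 0.00971). That call for Cdkn1b was lost without long 2i replicate 2 (adjusted p = 0.0785). Here 4 of 5 members were called higher, against 35.1% of all genes.

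Whether the change is undone when the inhibitors are removed was asked by 6 passages in serum after long culture in 2i. Cdkn2a fell 23.1-fold, to 1.57 ± 0.11 CPM in serum return against 36.6 ± 1.4 CPM in long 2i. Cdkn2b fell 14.8-fold (0.394 ± 0.101 against 5.78 ± 0.56 CPM) and Cdkn2c 7.7-fold (0.360 ± 0.049 against 2.85 ± 0.15 CPM). Their log2 fold changes were -4.53 (SE 0.14, adjusted p = 7.51e-17), -3.89 (SE 0.27, adjusted p = 6.91e-11) and -2.95 (SE 0.32, adjusted p = 5.23e-08) in edgeR. Cdkn1b rose 1.19-fold, to 104 ± 6.0 CPM in serum return against 87.6 ± 2.9 CPM in long 2i (adjusted p = 0.00101), and Cdkn2d did not pass (log2 fold change -0.51, 95% interval -1.22 to 0.20). Of all genes 36.0% were called lower and 35.4% higher, beside 3 and 1 of the 5 members.

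Serum return did not have the levels of the original serum culture for every member. Cdkn2a stayed 2.73-fold higher, at 1.57 ± 0.11 CPM in serum return and 0.576 ± 0.070 CPM in serum (log2 fold change 1.45, SE 0.29, edgeR adjusted p = 0.000867), although these are 46 and 32 counts against 11 and 12. Cdkn1b was 1.35-fold higher, with 104 ± 6.0 CPM in serum return and 76.8 ± 0.4 CPM in serum (log2 fold change 0.44, SE 0.06, edgeR adjusted p = 1.95e-05). Cdkn2b was at 0.394 ± 0.101 CPM in serum return and 0.174 ± 0.025 CPM in serum, and its log2 fold change of 1.12 did not pass (95% interval -0.04 to 2.28, edgeR adjusted p = 0.138). The intervals of Cdkn2c (-0.55 to 1.62) and Cdkn2d (-0.46 to 1.09) also held 0 and were wide, so that a 2-fold rise lies within them at this depth. In this comparison 16.5% of all genes were called higher, and 2 of the 5 members. Genes called in either direction numbered 4407 here, against 2437 without serum return replicate 1 and 2822 without serum replicate 2. Set against first 2i, serum return had 18.8-fold less Cdkn2a, 8.12-fold less Cdkn2b and 5.81-fold less Cdkn2c, 3 members called lower where 33.7% of all genes were.

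**Figure D2:**
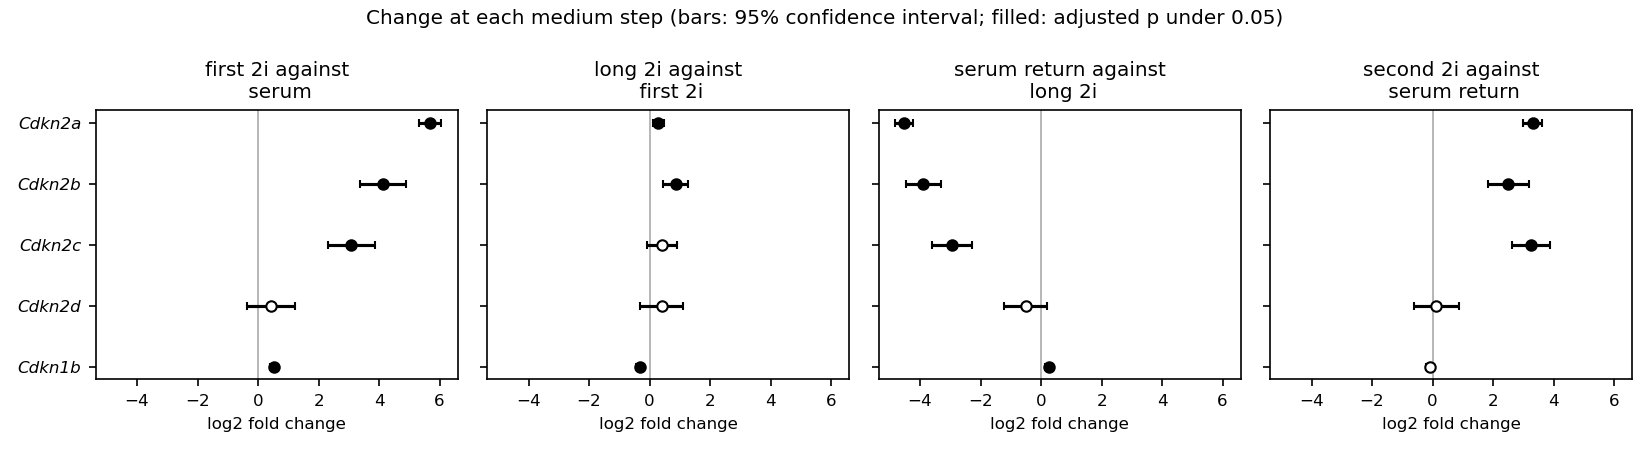
Log2 fold change of each gene at the 4 successive steps of the culture history, with 95% confidence intervals; filled points passed the edgeR test at an adjusted p under 0.05. Cdkn2a, Cdkn2b and Cdkn2c rise on entry into 2i, fall on return to serum and rise again, whereas Cdkn2d never passes and Cdkn1b moves by at most 0.51.

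The second exposure to 2i tested whether cells that had been through long 2i and serum respond as before. Cdkn2a was 9.94-fold higher in second 2i, at 15.7 ± 1.2 CPM against 1.57 ± 0.11 CPM in serum return (log2 fold change 3.31, SE 0.15, edgeR adjusted p = 6.39e-14). Cdkn2b was 5.69-fold higher, at 2.22 ± 0.21 against 0.394 ± 0.101 CPM (log2 fold change 2.51, SE 0.32, edgeR adjusted p = 8.05e-07). Cdkn2c rose 9.5-fold, to 3.51 ± 0.12 against 0.360 ± 0.049 CPM (log2 fold change 3.25, SE 0.30, edgeR adjusted p = 8.71e-09). Cdkn2d and Cdkn1b did not pass, with 95% intervals of -0.61 to 0.87 and -0.21 to 0.04, and the direction of Cdkn2d turned without second 2i replicate 2 (-0.22) or serum return replicate 2 (-0.04). So 3 members were called higher, where 32.3% of all genes were.

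How the second response differed from the first was tested as a contrast of its own. For Cdkn2a the second response was smaller by 2.37 on the log2 scale (estimate -2.37, SE 0.30, 95% interval -3.00 to -1.74, edgeR adjusted p = 5.05e-06). It set out from the 2.73-fold higher level of serum return and ended 1.89-fold lower, with 15.7 ± 1.2 CPM in second 2i against 29.8 ± 3.1 CPM in first 2i (edgeR adjusted p = 5.33e-07). For Cdkn2b the estimate was -1.63 (SE 0.60, 95% interval -2.88 to -0.38, edgeR adjusted p = 0.0359), and this call was lost with DESeq2 (adjusted p = 0.088) and without any 1 of 6 libraries. Cdkn1b, 1.43-fold higher in the first response, had an estimate of -0.60 (SE 0.08, edgeR adjusted p = 1.67e-05). For Cdkn2c the estimate was 0.17 with a 95% interval of -1.12 to 1.47, and for Cdkn2d -0.30 with -1.37 to 0.78, neither of which passed. Without serum replicate 1 these estimates were -0.08 for Cdkn2c and 0.25 for Cdkn2d. Thus 3 of 5 members were called lower in the second response, where 21.0% of all genes were. The labels give 4 to 5 passages for the second exposure and 5 to 6 for the first, so the number of passages and the earlier history cannot be told apart.

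**Figure D3:**
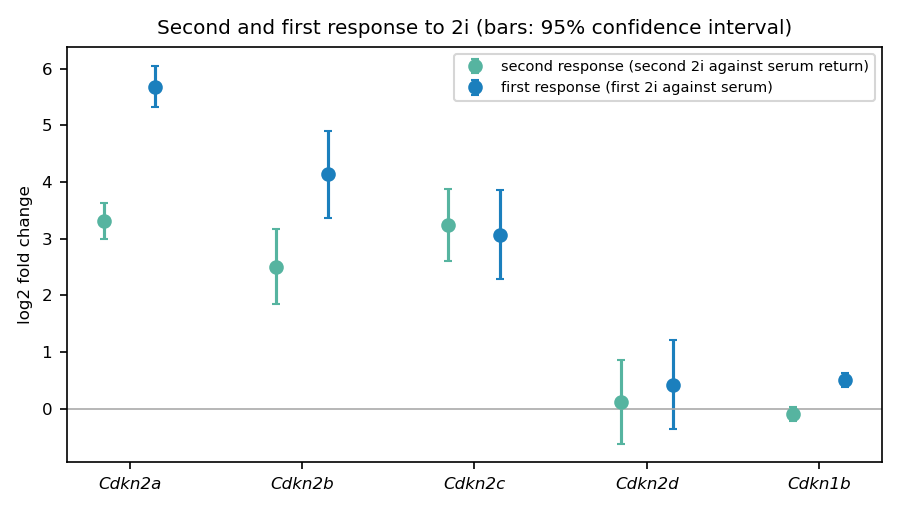
Log2 fold change of each gene in the second response (second 2i against serum return, left points) and the first response (first 2i against serum, right points), with 95% confidence intervals. The intervals of Cdkn2a, Cdkn2b and Cdkn1b do not overlap between the responses, and those of Cdkn2c and Cdkn2d do.

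Among cultures in 2i, second 2i differed from first 2i in opposite directions within the family. Cdkn2c was 1.63-fold higher, at 3.51 ± 0.12 CPM in second 2i and 2.14 ± 0.28 CPM in first 2i (log2 fold change 0.71, SE 0.23, edgeR adjusted p = 0.0187), while Cdkn2a was lower and Cdkn2b did not pass (log2 fold change -0.51, adjusted p = 0.0779). The call for Cdkn2c was lost with DESeq2 (adjusted p = 0.136) and without either library of second 2i (adjusted p = 0.0852 and 0.0658) or without first 2i replicate 2 (adjusted p = 0.126). Cdkn1b was 1.12-fold lower, at 98.3 ± 2.9 CPM in second 2i and 110 ± 4.9 CPM in first 2i (edgeR adjusted p = 0.0428), a call lost with DESeq2 (adjusted p = 0.0948), without the filter on low counts (adjusted p = 0.0545) and without 3 of the 4 libraries compared. In this pair 18.1% of all genes were called higher and 19.6% lower, 5357 in all, against 3556 without second 2i replicate 2. Against long 2i, second 2i had 2.32-fold less Cdkn2a and 2.6-fold less Cdkn2b (edgeR adjusted p = 2.32e-09 and 1.17e-05). Cdkn1b was 1.12-fold higher there (edgeR adjusted p = 0.0257), and that call was lost without long 2i replicate 1 (adjusted p = 0.123) or second 2i replicate 2 (adjusted p = 0.157). Of all genes 28.4% were called lower and 28.1% higher in second 2i than in long 2i.

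Second 2i still lay far above the original serum culture, 27.2-fold for Cdkn2a, 12.3-fold for Cdkn2b, 13.8-fold for Cdkn2c and 1.28-fold for Cdkn1b, 4 members called higher where 33.6% of all genes were. Over the 3 groups in 2i against the 2 in serum media, weighted equally, log2 fold changes were 4.75 (SE 0.11) for Cdkn2a, 3.70 (SE 0.22) for Cdkn2b, 3.18 (SE 0.23) for Cdkn2c and 0.13 (SE 0.04) for Cdkn1b. These 4 passed the edgeR test (adjusted p = 0.0039 for Cdkn1b and lower for the others), where 38.4% of all genes were called higher. Cdkn2d did not pass (log2 fold change 0.41, 95% interval -0.08 to 0.90, edgeR adjusted p = 0.119), but it did without the filter on low counts (0.0499) and without serum replicate 2 (0.00688), both as edgeR adjusted p.

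Divided by exon length from the GENCODE M21 annotation, which may differ from the one used for counting, the Ink4 genes changed their make-up with the medium. Their summed level per kb of exon was 1.18 and 2 CPM per kb in serum, 27.9 and 31.5 in first 2i, 37.2 and 38.7 in long 2i, 3 and 2.64 in serum return, with 16.4 and 18.6 CPM per kb for second 2i. In serum, Cdkn2d made up 52.5 ± 15.9% of that sum and Cdkn2a 32.4 ± 8%. These shares rest on 15 and 36 counts of Cdkn2d and 11 and 12 of Cdkn2a. They were close in serum replicate 1 (41.2% and 38.1%) and apart in replicate 2 (63.7% and 26.7%). In first 2i Cdkn2a made up 85.6 ± 1.7%, in long 2i 82.2 ± 0.8% and in second 2i 76.7 ± 0.7%, and in serum return it held 47.5 ± 0.9%. The share of Cdkn2c was 2.71 ± 0.58% in first 2i and 7.5 ± 0.9% in second 2i. On the same scale Cdkn1b had 16.9 CPM per kb in serum and 19.2 to 24.1 in the other groups, so that the Ink4 sum was 6.97 and 11.9% of the Cdkn1b level in serum, 112 and 135% in first 2i, 198 and 197% in long 2i, 13.7 and 11.1% in serum return, with 77.8 and 84.3% for second 2i.

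**Figure D4:**
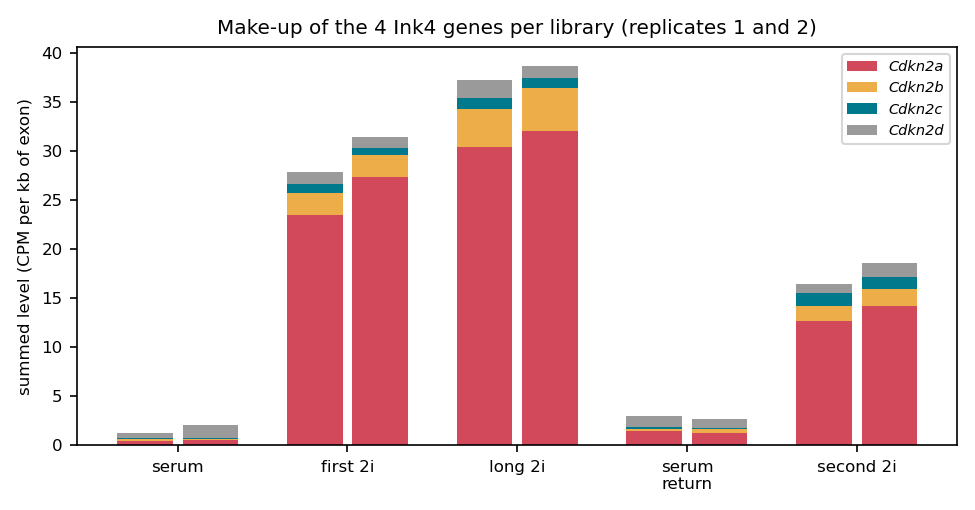
Summed level of the 4 Ink4 genes in CPM per kb of exon in each library, replicates 1 and 2 side by side, with the share of each gene in colour. Cdkn2a makes up most of every bar from 2i, and the bars of serum and serum return reach at most 3 CPM per kb.

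The ratio of Cdkn2a to Cdkn2b counts within a library was 2.75 and 4 in serum, 8.81 and 9.97 in first 2i, 6.62 and 6.08 in long 2i, 5.11 and 3.2 in serum return, with 7.18 and 7 for second 2i. It was higher in each 2i library than in any library from serum media, and highest in first 2i. Of the genes that flank the pair, Mtap was tested. It codes for an enzyme of methionine salvage, lies on the Cdkn2a side and rose 1.6-fold in first 2i (138 against 86.0 CPM in serum, edgeR adjusted p = 2.5e-09). Dmrta1, on the Cdkn2b side, had at most 5 counts in any library and was not tested. Beside Cdkn2d, Ap1m2, an epithelial clathrin adaptor subunit, was 4.61-fold higher in first 2i (17.8 against 3.86 CPM in serum, edgeR adjusted p = 2.41e-11) while Cdkn2d did not pass. Gpr19 next to Cdkn1b was 1.33-fold higher (24.3 against 18.3 CPM). Apold1, on its other side, averaged 0.167 CPM in first 2i and 0.643 CPM in serum. Faf1 beside Cdkn2c averaged 160 CPM in first 2i and 157 CPM in serum. Of 7 genes tested near the members, 5 rose and 1 fell in first 2i against serum, where 35.1% of all genes rose and 34.9% fell. No annotated GENCODE M21 gene overlaps any of the 5 genes on either strand.

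Patterns were compared by Pearson correlation of log2 CPM over the 10 libraries, among 10458 genes averaging at least 5 CPM in a group. The members, symbols that are only model or accession-like names, and ribosomal protein or histone genes were left out. Of these 10458, the nearest to Cdkn2a were Mob3b (r = 0.998), Ctnnd2 (0.996) and Mex3b (0.996). Mex3b averaged 0.7 CPM in serum, 18.9 in first 2i, 25.4 in long 2i, 1.24 in serum return and 13.3 in second 2i. Nearest to Cdkn2b were Cldn4 (r = 0.994), Zfp78 (0.993) and Ogg1 (0.993), and among the nearest to Cdkn2c were Il34 (0.995) and Bst1 (0.995). Il34, which encodes a cytokine, averaged 0.793 CPM in serum, 13.8 in first 2i, 22.3 in long 2i, 0.924 in serum return and 32.3 in second 2i, highest in second 2i as Cdkn2c was. For Cdkn1b they were Manea (0.94), Primpol (0.938) and Pex11g (0.936), and Primpol averaged 21.6, 56.5, 28.9, 38.2 and 39.2 CPM in the same order of groups. For Cdkn2d the highest r was 0.812, with Tctn1. These are descriptions with no test, and the 10 points share their split into 2 media.

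The remaining Cip/Kip inhibitors moved apart in first 2i. Cdkn1a, which encodes p21 and is a target of p53, rose 11.7-fold (219 against 18.7 CPM in serum), and Cdkn1c, the imprinted gene of p57, fell 10.1-fold (0.717 against 7.30 CPM in serum). In serum return Cdkn1a, like Cdkn2a and Cdkn1b, was above the original serum culture (32.4 against 18.7 CPM, 1.73-fold, edgeR adjusted p = 8.08e-07), and Cdkn1c did not pass.

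Of the 5 genes for Cdk4, Cdk6 and the D cyclins that the Ink4 proteins act on, 2 rose and 3 fell in first 2i against serum (median log2 fold change -1.26, against 0.01 over all genes). In that comparison 35.1% of all genes rose and 34.9% fell. Ccnd1 fell 4.58-fold (43.5 against 199 CPM in serum) and Ccnd3 2.39-fold (315 against 751 CPM), while Cdk4 was 1.11-fold and Cdk6 1.31-fold higher. In long 2i Ccnd1 was 2.5-fold and Ccnd3 1.38-fold higher than in first 2i, with 109 and 435 CPM. Among the 5 genes of S-phase entry 4 fell and 1 rose in first 2i (median -0.41), against 34.9% and 35.1% of all genes: Ccne1, the cyclin that Cdkn1b's product inhibits, fell 5.24-fold (68.6 against 360 CPM in serum) and its kinase Cdk2 rose 2.28-fold (253 against 111 CPM). Of 13 Rb family and E2F genes 5 rose and 5 fell (median -0.14), near the 35.1% and 34.9% of all genes, with E2f2 down 7.05-fold (9.45 against 66.7 CPM) and the pocket protein gene Rbl1 up 1.79-fold (70.1 against 39.3 CPM).

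Of 17 proliferation genes 12 fell and none rose in first 2i against serum (median -0.27), where 34.9% of all genes fell and 35.1% rose. Those that fell included Mki67 (256 against 409 CPM, 1.6-fold lower) and Cdc20 (180 against 284 CPM). In long 2i against first 2i 6 rose and 6 fell, near the 30.4% and 30.8% of all genes, with Mcm6, a subunit of the replicative helicase, 2.27-fold lower (450 against 1022 CPM). In serum return against long 2i 12 of 17 rose and none fell (median 0.20), where 35.4% of all genes rose and 36.0% fell. These genes moved opposite to Cdkn2a, Cdkn2b and Cdkn2c on entry into 2i and on return to serum, and their part in the result was not tested.

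Factors known to turn the Ink4/Arf locus off rose in 4 and fell in 7 of 15 cases in first 2i (median -0.02), not far from the 35.1% and 34.9% of all genes. Bmi1, the Polycomb subunit whose loss is known to raise Cdkn2a, was 8.37-fold higher (34.5 against 4.11 CPM in serum) and higher again in long 2i (74.8 CPM, 2.17-fold over first 2i). In serum return it was at 9.45 CPM, 2.29-fold above serum (edgeR adjusted p = 5.03e-07). Its mRNA, like that of Cdkn2a, was higher in each 2i group than in serum and serum return. Id1, known in human cells as a repressor of p16, fell 68.8-fold in first 2i (2.69 against 186 CPM in serum) and stood at 21.2 CPM in long 2i, 133 in serum return and 4.52 in second 2i. The histone demethylase gene Kdm2b fell 1.69-fold (68.2 against 115 CPM) and Eed, a Polycomb subunit, 1.39-fold (214 against 297 CPM). Of 6 known activators 3 rose and 2 fell, again not far from the 35.1% and 34.9% of all genes. They were led by Smad3, a transducer of TGF-β signals, 3.82-fold higher in first 2i (61.7 against 16.1 CPM in serum). It was 1.69-fold lower in long 2i than in first 2i. The part of these repressors and activators in the results was not tested.

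Downstream of Arf, 5 of 7 genes of the Mdm2 and p53 axis rose and 1 fell in first 2i (median 0.48), where 35.1% of all genes rose and 34.9% fell. Ccng1, a p53 target, was 3.15-fold higher (367 against 117 CPM in serum) and Mdm2 1.4-fold higher (145 against 104 CPM). In the contrast of the second with the first response 5 of 7 were lower and none higher (median -0.81, against -0.02 over all genes), while 21.0% of all genes were called lower. Cdkn1a stands in this list and among the Cip/Kip genes. A link of this list with Cdkn2a was not tested.

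Around Cdkn1b, all 3 FoxO genes, whose products are known to activate it, fell in first 2i while Cdkn1b rose: Foxo4 2.03-fold (56.9 against 115 CPM in serum), Foxo1 1.28-fold (52.3 against 66.8 CPM) and Foxo3 1.23-fold. Of all genes 34.9% fell there. They fell again in long 2i against first 2i, when Cdkn1b fell too and 30.8% of all genes did, and all 3 rose in serum return against long 2i (median 1.03, with 35.4% of all genes higher), Foxo1 by 2.32-fold (81.7 against 35.2 CPM). Of 7 genes for the ubiquitin ligases that degrade p27, 4 fell and none rose in first 2i, where 34.9% of all genes fell and 35.1% rose. The list was led by Cks1b (67.6 against 124 CPM in serum, 1.84-fold lower). In long 2i 5 of 7 rose and none fell against first 2i, where 30.4% of all genes rose and 30.8% fell. Here the list was led by the cullin gene Cul1 (306 against 162 CPM, 1.88-fold higher). The part of the FoxO and ligase genes in the result for Cdkn1b was not tested.

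**Figure D5:**
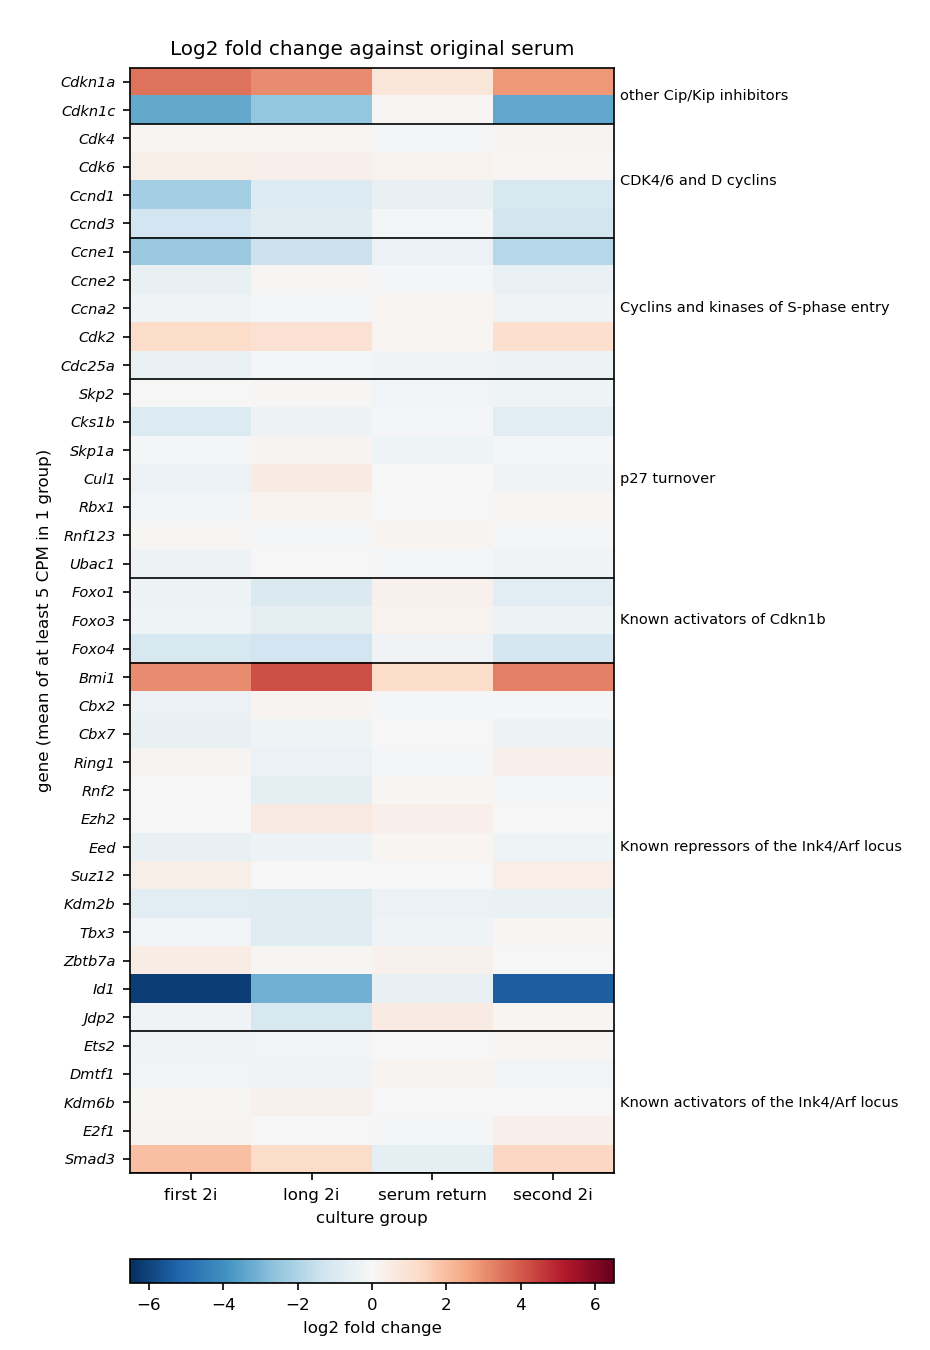
Log2 fold change against the original serum culture (colour) for genes of the listed groups whose mean reached 5 CPM in 1 or more groups, in first 2i, long 2i, serum return and second 2i. Cdkn1a and Bmi1 are higher and Id1, Ccnd1 and Ccne1 lower in each 2i group, and for these 5 genes serum return is nearest to 0.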

How the data were processed

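Total RNA of 10 libraries in 5 culture groups was sequenced, per the labels. The files the authors deposited hold raw read counts, whole numbers for each gene symbol. The submitters' processing notes list CASAVA (1.8.2), TopHat2 (2.0.4), HTSeq (0.5.4p5), DESeq2 and build mm9; annotation, strand setting and layout: not given in the sources used here. The 5 summary categories were left out of library sizes: records outside features were 10.34 to 11.78%, ambiguous ones 0.688 to 0.73% and reads aligned to more than 1 place 33.41 to 36.51% of all records. Reads of the last kind count for no gene, which lowers the counts of genes that have near-identical copies.

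Groups came from the culture label. Counts were tested with edgeR 4.0.16 in R 4.3.3: filterByExpr by group (minimum count 10, minimum total 15), TMM factors and a robust quasi-likelihood fit of group over all 10 libraries (5 residual degrees of freedom), in 12 contrasts, two-sided, Benjamini-Hochberg over 14220 genes, called at an adjusted p under 0.05. The fit was tested on simulated data. Standard errors come from the F statistic. Poisson intervals cover counting error only. The members, lists and tests were chosen with earlier results of these data known. Lists follow textbook knowledge; up to 4 members per list were named by largest fold change among those that passed at 5 CPM or more, and the few others named were chosen after their values were seen. Alternatives were DESeq2's size factors, no filter, DESeq2 1.42.0, a fit to the compared groups alone, a block on the title series and leave-one-out fits. A further gene whose pattern was like that of a member is not reported here.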

Additional observations from a re-analysis of the deposited data

Results flagged for a closer look

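The response to 2i was lower in the second than in the first exposure for 3 of 5 members, by the edgeR test of the difference itself. Of all genes 21.0% were called lower and 18.4% higher in this contrast. The estimate on the log2 scale was -2.371 for Cdkn2a (second response 3.31, first response 5.68), -1.629 for Cdkn2b (2.51 and 4.14) and -0.5952 for Cdkn1b (-0.08 and 0.51). The call for Cdkn2b was lost with DESeq2 (adjusted p = 0.088) and without any 1 of 6 libraries. Groups of 2 libraries are too small to look for a single library far from the others.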

How the results depend on the processing

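The changes of Cdkn2a, Cdkn2b and Cdkn2c between 2i and serum media kept their direction and their call under each alternative that gave a value, in all contrasts of 2i with serum media. DESeq2's size factors changed no call (60 of 60 fold changes of the members, 12 of 12 counts of genes). DESeq2's own test lost 4 calls, with log2 values of 0.2899 for Cdkn2a in long 2i against first 2i, 0.7149 for Cdkn2c and -0.1543 for Cdkn1b in second 2i against first 2i, and -1.657 for Cdkn2b in the second minus the first response. Without the filter on low counts Cdkn1b in second 2i against first 2i was lost (-0.1534), and Cdkn2d was called in long 2i against serum (0.8221) and over all 2i against all serum cultures (0.4087). A fit to the compared groups alone gave no value for Cdkn2b and Cdkn2c in serum return against serum, where they fell to the filter, and was not run for the contrast of all groups.

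Correlations of the replicate difference between groups were low but all positive, 0.0994 to 0.168 (median 0.127), of which 9 of 10 exceeded 0.1. These values do not show that the title series are unpaired, and the main fit did not include the series. With the series as a replicate block, 1 call of a member changed, Cdkn2d in long 2i against serum (0.8269).

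Leaving out each library in turn gave these ranges of log2 values where a call or a direction changed; the cause was not tested. Cdkn2d spanned -0.1254 to 1.254 in first 2i against serum, 0.2732 to 1.653 in long 2i against serum, -0.2355 to 1.144 in serum return against serum, -0.347 to 0.06155 in serum return against first 2i, -0.2209 to 0.4071 in second 2i against serum return, -0.3321 to 0.2962 in second 2i against first 2i, -0.1063 to 1.274 in second 2i against serum, -1.124 to 0.2546 in the second minus the first response and 0.1316 to 0.8217 over all cultures. Cdkn2a spanned 0.1837 to 0.4014 in long 2i against first 2i. Cdkn1b spanned 0.158 to 0.2159 in long 2i against serum, -0.1999 to -0.1104 in second 2i against first 2i and 0.1363 to 0.2015 in second 2i against long 2i. Cdkn2c spanned 0.5875 to 0.8487 in second 2i against first 2i and -0.07928 to 0.3706 in the second minus the first response, where Cdkn2b spanned -1.896 to -1.378. Genes called numbered 2437 to 4477 in serum return against serum, with 2437 without serum return replicate 1 and 2822 without serum replicate 2, and 3556 to 5438 in second 2i against first 2i, with 3556 without second 2i replicate 2. Reads of Cdkn2b and Cdkn2c in serum media (3 to 11 counts) limit what can be told of them there.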
